A study of Mus musculus with 2 samples.

Results

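The clustered protocadherins are a family of neuronal cadherin-like adhesion proteins encoded side by side on mouse chromosome 18 in the alpha, beta and gamma clusters. Members were taken as the protein-coding genes of GENCODE M21 (mm10 assembly) on that chromosome whose symbols begin with Pcdha, Pcdhb, Pcdhga, Pcdhgb or Pcdhgc, followed by a number or the letter c. This gave 57 of 21938 protein-coding genes, of which 14 belong to the alpha, 22 to the beta and 21 to the gamma cluster. From the Pcdha1 start to the end of the gamma cluster the locus spans 912 kb, and all members lie on the plus strand. The annotation gives the symbol Pcdha11 to 2 records, and the record that starts at chr18:37005203 is called Pcdha10 here, after the nearest RefSeq start. No DNA sequence of the locus is printed.

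Each alpha and gamma member begins with its own promoter and variable exon, which is spliced to constant exons that its cluster shares, whereas a beta gene is encoded by its variable exon alone. A neuron switches on a few alternate promoters on each chromosome, by a choice that varies from cell to cell, whereas the C-type promoters at the ends of the alpha and gamma clusters are used more broadly. CTCF, a DNA-binding protein, and cohesin are known to bring promoters of the clusters into contact with distant enhancers. The 5 C-type members are Pcdhac1, Pcdhac2, Pcdhgc3, Pcdhgc4 and Pcdhgc5, and the other 52 are alternate members: 12 alpha, 22 beta and 18 gamma.

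Open chromatin was mapped by DNase-seq, which sequences the ends that DNase I leaves where it reaches exposed DNA. The tissue was left cerebral cortex from male B6CASTF1/J mice aged 8 to 10 months, which are hybrids of a laboratory strain and the wild-derived castaneus strain. The study holds 1 group of 2 libraries, labelled biological replicates 1 and 2, with no treatment and no altered allele. Both carry the same donor identifier, so SDs over the libraries (n = 2) may leave out variation between animals, and no test between conditions could be made. Replicates 1 and 2 held 40705 and 39508 narrow peaks, 71210 and 72217 peaks in a broader, more permissive list, as well as 166128 and 174394 footprints, stretches of a few bases that DNase I spared within open DNA. Each peak carries a deposited strength, with a median over all narrow peaks of 1.22 and 1.15. Read totals were not used here, so the depth is unknown. Of the cell type markers, narrow peaks lay within 1 kb of the start in both libraries for 3 of 6 neuronal genes (Snap25, Syt1 and Tbr1), 2 of 4 astrocyte genes, 1 of 4 oligodendrocyte genes, 1 of 3 endothelial genes, 0 of 3 microglial genes and 0 of 5 genes of other organs. The other neuronal genes, Rbfox3, Slc17a7 and Gad1, had no start peak of either list. Over all protein-coding genes the share with such a narrow peak was 50.5%, so these small counts are not a measure of cell content. In whole tissue, a site open in fewer cells and a site less open in each cell cannot be told apart.

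Most clustered protocadherin starts held no called site in both libraries, and narrow peaks in both libraries lay mainly at C-type starts. A narrow peak within 1 kb of the start was found in both libraries for 5 of 57 members (8.77%), beside 50.5% of all protein-coding genes. Replicate 1 had such a peak at 5 members and replicate 2 at 9. By cluster, the members called in both libraries were 2 alpha, 0 beta and 3 gamma. Of the 5 C-type members 4 were called in both libraries, and of the 52 alternate members only Pcdhga12 was. In the broader list 11 members (19.3%) were called in both libraries, beside 56.2% of all genes: 2 alpha, 6 beta and 3 gamma, or 4 C-type and 7 alternate members. Footprints were present in both libraries at 9 members (15.8%), beside 54.4% of all genes: 2 alpha, 4 beta and 3 gamma, or 4 C-type and 5 alternate members. No start window of a member overlapped that of another, since neighbouring starts were at least 4131 bp apart.

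**Figure D1:**
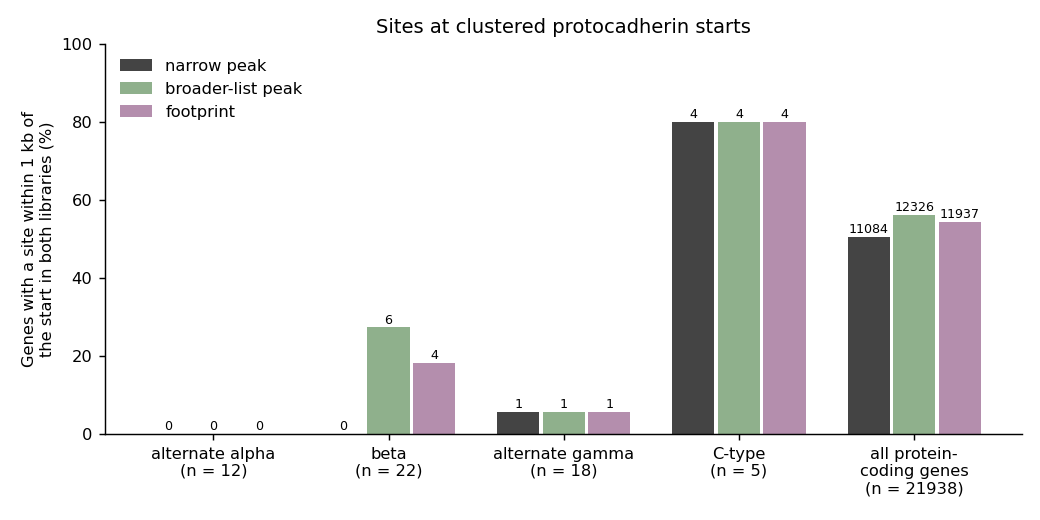
Percent of genes (y axis) with a narrow peak, a broader-list peak or a footprint within 1 kb of the start in both libraries, for the 4 kinds of member and for all 21938 protein-coding genes. The number over each bar counts the genes. The C-type bars stand at 4 of 5, the alternate alpha bars at 0 of 12, and beta genes have 6 of 22 in the broader list but 0 in the narrow list.

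The C-type members Pcdhgc3 and Pcdhac1 had the strongest start peaks by mean narrow strength, and the alternate member Pcdhga12 stood above the other C-type members. Pcdhgc3, the C-type gene nearest the alternate gamma exons, had narrow peaks centred 14 bp upstream of its start with strengths of 3.12 in replicate 1 and 2.55 in replicate 2 (2.83 ± 0.405, SD, n = 2), at chr18:37806221-37806480 in replicate 1. Pcdhac1, the nearer of the alpha C-type exons to the alternate exons, had 2.17 and 2.12 (2.15 ± 0.0355). Pcdhac2, the last variable exon of the alpha cluster, had 1.08 and 1.11 (1.10 ± 0.0216), split over 3 and 4 narrow peaks inside its window. Over all genes with a narrow start peak the median strength was 2.70 in replicate 1 and 2.34 in replicate 2, so of the C-type members only Pcdhgc3 lay above it, in both libraries.

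The remaining gamma C-type members differed between the libraries. At Pcdhgc5, the last variable exon of the gamma cluster, the strongest narrow peaks had strengths of 0.796 and 1.27 (1.03 ± 0.334) and did not overlap, lying 533 and 177 bp past the start. The strongest broader-list peaks there had 1.66 and 1.27 (1.46 ± 0.276), again at positions that did not overlap, so this mean joins different sites. Counted from the Pcdha1 start, the strongest peak of replicate 1 was centred at 889.1 kb (1.66), where replicate 2 had a weaker peak of that list (1.14). Both libraries also had one at 890.2 kb (0.569 and 0.685). Pcdhgc4 had 3 narrow peaks in replicate 2, the strongest 0.852 and centred 842 bp past the start, and none of either list in replicate 1. The authors' FDR table, which lists short intervals at a false discovery rate of 0.05 or less, covered 1153 bp of the Pcdhgc4 window in replicate 2 and 0 bp in replicate 1. Such a contrast was uncommon: 10 of the 5918 genes with at least 1000 listed bp in replicate 2 had none in replicate 1, and 1 of 5149 had the reverse. Its cause was not tested.

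Footprints were found at every C-type start in replicate 2 and at all but Pcdhgc4 in replicate 1. Pcdhac1 held 6 and 7 footprints in replicates 1 and 2, Pcdhac2 held 8 and 8, Pcdhgc3 held 5 and 12, Pcdhgc5 held 8 and 14, and Pcdhgc4 held 0 and 10. The median over all genes, including those without a start peak, was 2 and 3. The median over genes with a start peak was not computed, so these counts are not set against other open starts. Footprint positions were shared only in part: in the alpha windows 7 of the 14 footprints of replicate 1 overlapped one of the 18 of replicate 2, and in the gamma windows 6 of 23 overlapped one of 42.

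**Figure D2:**
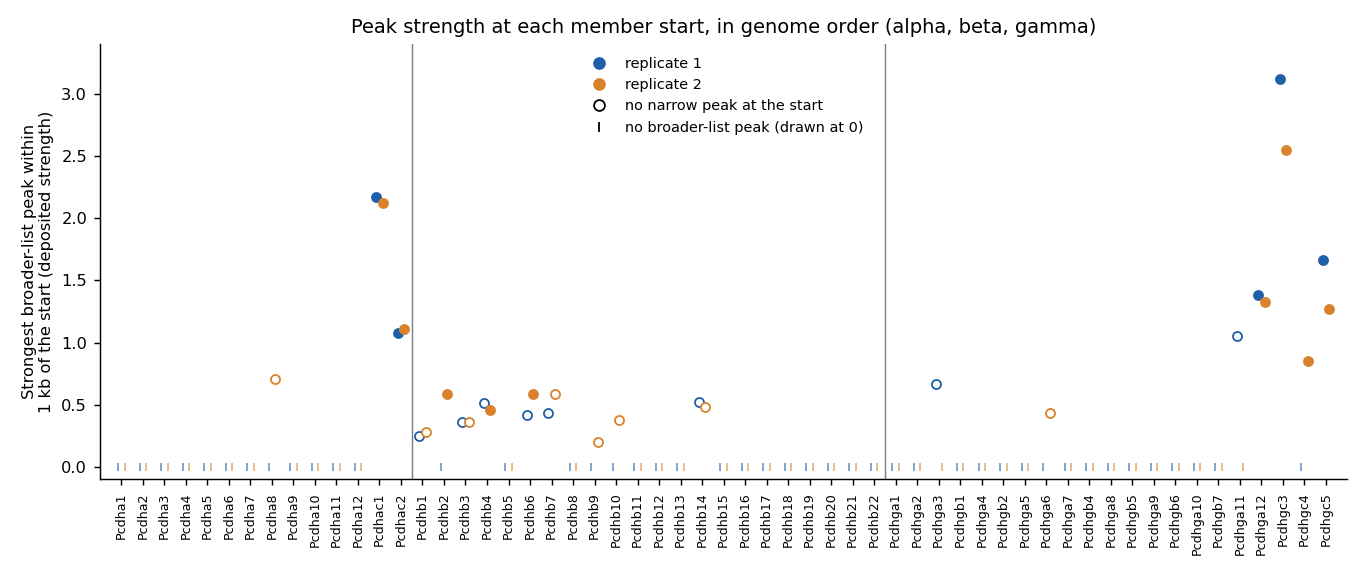
Deposited strength of the strongest broader-list peak within 1 kb of each member start (y axis), with the 57 members in genome order and the clusters parted by grey lines. Filled points also have a narrow peak at the start, open points do not, and ticks at 0 stand for no peak. Pcdhgc3 is highest in both libraries, at 3.12 and 2.55, and the beta points lie between 0.204 and 0.583.

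The alternate alpha members, which give most of the variety of alpha isoforms, were almost without signal. None of the 12 held a narrow peak in either library, and Pcdha8 alone held a broader-list peak, in replicate 2 only, with a strength of 0.704 and a centre 496 bp past the start. The FDR table listed no position in any of their windows in replicate 1, and in replicate 2 it listed 142 bp at Pcdha8 and 20 bp at Pcdha4. At most 2 of the 12 windows were listed at a shared distance, 436 to 450 bp past the start in replicate 2.

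The beta genes carried weak sites that the narrow list mostly left out. In the broader list 6 of 22 were called in both libraries: Pcdhb1 with 0.246 and 0.278, Pcdhb3 with 0.360 and 0.361, Pcdhb4 with 0.512 and 0.454, Pcdhb6 with 0.417 and 0.583, Pcdhb7 with 0.436 and 0.583, and Pcdhb14 with 0.521 and 0.481. Pcdhb7 was the strongest by mean (0.510 ± 0.104), followed by Pcdhb14 (0.501 ± 0.0282) and Pcdhb6 (0.500 ± 0.118), and these 3 did not differ beyond their spread. Replicate 2 alone had a broader-list peak at Pcdhb2 (0.583), Pcdhb9 (0.204) and Pcdhb10 (0.380), and a narrow peak at Pcdhb2 (0.583), Pcdhb4 (0.454) and Pcdhb6 (0.583). The median beta strength was 0.426 and 0.454, against 2.48 and 2.16 over all genes with a broader-list start peak. All of these peaks were centred between 122 bp upstream and 126 bp downstream of the start. The sites were few in the distal part of the cluster: of the 8 genes from Pcdhb15 to Pcdhb22, none had a peak of either list in either library.

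The alternate gamma members were led by Pcdhga12, the last of them before the C-type exons. Its narrow peak had strengths of 1.38 and 1.33 (1.36 ± 0.0357), overlapped between the libraries, and was centred 332 and 345 bp past the start. The other gamma calls came from a single library each: Pcdhga3 (0.663) and Pcdhga11 (1.05) in the broader list of replicate 1, and Pcdhga6 (0.435) in that of replicate 2. The neighbouring Pcdhgb8, which the annotation calls a polymorphic pseudogene and which is therefore not a member, had a broader-list peak near its start in both libraries (1.00 and 0.898) and no narrow peak.

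The FDR table gave little further signal at members without a peak. It comes from the same libraries as the peak lists and is not a separate check of them. Members with a value of 0.001 or less in both libraries numbered 5, as in the narrow list. It listed at least 1 position in 13 member windows in replicate 1 and 20 in replicate 2, 11 of them in both, and in neither library for 35 of 57 members. Over all genes the windows with a listed position numbered 12855 and 13022, and 8584 had none in either library. Every member listed in replicate 1 also had a broader-list peak, and in replicate 2 all but Pcdha4, Pcdhb12 and Pcdhb21 did. Along the windows, beta genes were listed most often just before the start: 5 of 22 at 44 to 39 bp upstream in replicate 1 and 9 of 22 at 39 to 6 bp upstream in replicate 2. All 5 C-type members were listed at some positions between 143 bp upstream and 764 bp downstream in replicate 2, and at most 3 at any position in replicate 1.

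**Figure D3:**
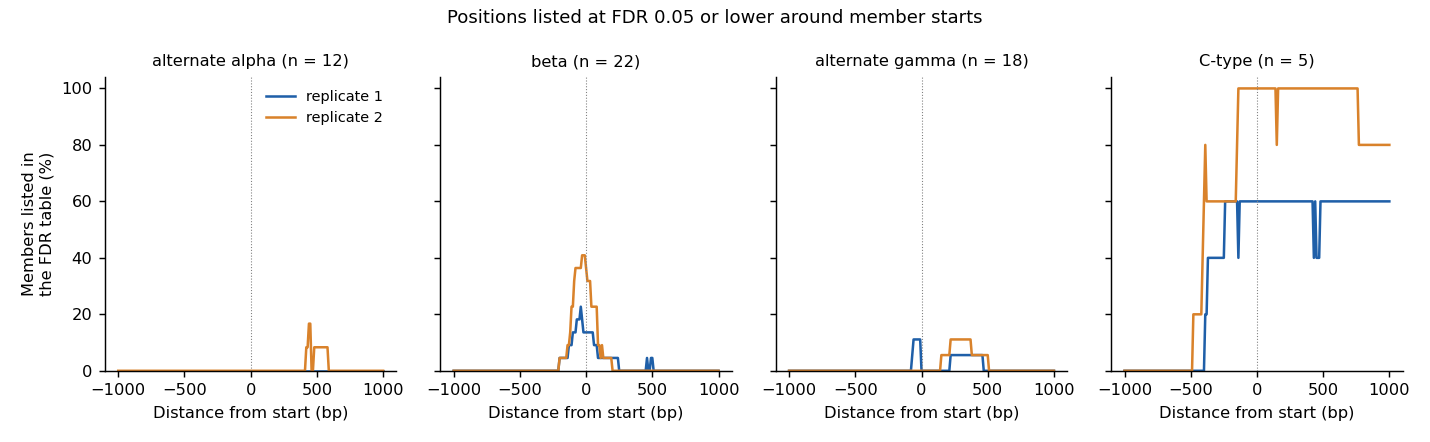
Percent of members (y axis) whose window is listed in the FDR table at each distance from the start (x axis, bp), per library. The beta curve has a narrow maximum just upstream of the start, 22.7% in replicate 1 and 40.9% in replicate 2, while the C-type curve is broad and the alternate alpha curve is flat at 0 in replicate 1.

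The sequence of the start windows (1 kb on either side, GRCm38.p6) was described next, as a feature the choice of members did not use. GC content had a median of 42.9% over members, 51.4% over C-type members and 51.2% over all genes. The ratio of observed to expected CpG dinucleotides had a median of 0.641 in alternate alpha, 0.334 in beta and 0.507 in alternate gamma members, against 0.474 over all genes. Because members are paralogs, reads can be hard to place, so the share of 31-base words found once in the genome was counted. It had a median of 88.5% in alternate alpha, 99.5% in beta and 97.3% in alternate gamma members and 98.3% over all genes, was lowest at Pcdha7 (73.2%), and was 99.2% or more in the C-type members. Alternate alpha members thus had lower uniqueness and few calls, while Pcdhb15 to Pcdhb22 had 93.4% to 100% unique words and no peak. The part of uniqueness in the missing calls was not tested.

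Matches to known letters differed by cluster. The core of the CTCF consensus, with at most 1 mismatch and on either strand, was present in 9 of 12 alternate alpha windows (75%), 1 of 22 beta windows, 2 of 18 alternate gamma windows and 20.6% of all gene windows. The alternate alpha matches all ran along the gene strand and lay 462 to 587 bp past the start, with a median of 566 bp. Without a mismatch the core remained in 6 alternate alpha windows (50%), against 1.72% of all genes. This core was taken after a longer consensus had matched few members, so a share above that of all genes may in part come from that choice. The alternate alpha members are also paralogs, so their matches are not independent. None of the 9 matches lay in a broader-list peak in replicate 1, and 1, at Pcdha8, lay in a broader-list peak and a footprint in replicate 2. A match is only a run of letters and does not show binding.

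A word shared by beta promoters was chosen after counting short words in the member windows. The chosen word holds the GGC that ends the CTCF core and the letters that follow it, so it is not unrelated to that core. It was picked because many of these windows share it, so a share above that of all genes was set by the choice. The beta genes are also paralogs, so their matches are not independent. GGNGGCGCT, searched on both strands without mismatch, was present in 20 of 22 beta windows (90.9%), missing from Pcdhb1 and Pcdhb13, and in 11.9% of all gene windows. It ran along the gene strand in all 20, with a median position 49 bp upstream of the start, and lay within 150 bp upstream in 18. It was also present near Pcdhac1, at position -62 from the start, and near Pcdhac2, 153 bp past the start on the opposite strand, but in no alternate alpha and no gamma window. Of the word-bearing beta genes, 5 had a broader-list start peak in replicate 1 and 8 in replicate 2, and the word lay inside the strongest such peak in 5 and 7 of them, Pcdhb9 being the exception. The word overlapped a footprint at Pcdhac1 and Pcdhac2 in both libraries and at Pcdhb6 and Pcdhb7 in replicate 2. Most beta genes with the word thus had no peak, and Pcdhb1, without it, had a weak broader-list peak in both libraries.

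**Figure D4:**
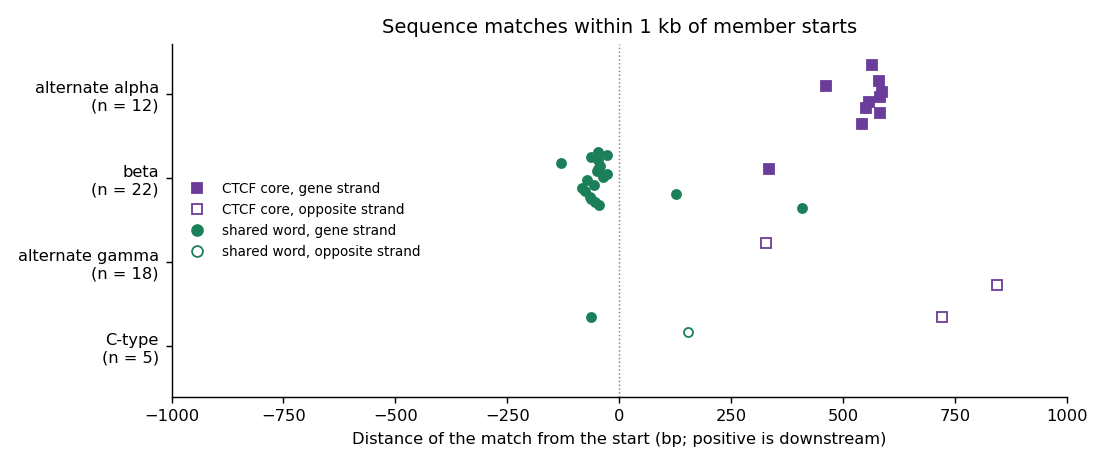
Position of each match relative to the start (x axis, bp) in alternate alpha, beta, alternate gamma and C-type members, 1 row of points per member. Squares are CTCF core matches and circles the shared word, filled on the gene strand and open on the opposite strand. The alternate alpha squares gather 462 to 587 bp past the start and 18 beta circles within 150 bp upstream of it.

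Away from member starts, the strongest open sites of the locus lay between and beyond the clusters. Counting 50 kb on either side of the clusters, replicates 1 and 2 held 15 and 12 such narrow peaks, of which 10 overlapped between the libraries, and 19 and 23 broader-list peaks, of which 15 overlapped. From the Pcdha1 start to the gamma end, narrow peaks numbered 19.7 and 27.4 per Mb, against 14.9 and 14.5 per Mb over the chromosomes. Per Mb the locus was thus not poor in peaks. These densities count peaks of other genes such as Taf7 and do not allow for how closely gene starts are packed. The 50 kb before Pcdha1 held none of either list, and neither did the stretches of the beta cluster away from starts.

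Among the alpha variable exons, away from starts, the narrow list held no peak, and the broader list held 1 in replicate 1 (0.426) and 3 in replicate 2 (0.694, 0.694 and 0.574). Among the alpha constant exons, a site at chr18:37172289-37172520 in replicate 1, in an exon of the antisense transcript Gm38097, was called narrow in replicate 1 only (1.29) and in the broader list in both libraries (1.29 and 0.833). A second, at chr18:37178419-37178700 in an exon of Gm10544, had 0.891 and 1.03 and was called narrow in both. In the gap between the alpha and beta clusters, 3 narrow peaks per library overlapped pairwise and lay 29.6 to 30.7 kb past the alpha end, outside every annotated exon. Gm42416, Gm37013 and Gm37388, protein-coding models that run through the locus, span them and had no start peak. Their strengths were 2.20 and 1.33 (1.77 ± 0.612) at chr18:37217361-37217580, 1.37 and 1.15 (1.26 ± 0.160) at chr18:37217721-37218060, and 3.30 and 2.17 (2.73 ± 0.800) at chr18:37218201-37218460. The last of these was above the alpha C-type starts in both libraries.

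Between the beta and gamma clusters the strong peak belonged to another gene. Taf7, which encodes a subunit of the general transcription factor TFIID and lies on the minus strand, had 3.61 and 3.45 at its start (3.53 ± 0.111). A weak site at the start of the noncoding gene 3222401L13Rik had 0.692 and 0.556, from narrow peaks that did not overlap, and 0.692 and 0.546 in the broader list, where they did. Among the gamma variable exons, a narrow peak at chr18:37768216 (its start in replicate 1), where exons of Pcdhga12 and of the minus-strand gene Gm26672 overlap, had 1.29 and 0.963. The other narrow peaks there were called in a single library, at 0.787 and 0.616 in replicate 1 and 0.741 in replicate 2. The weaker of those in replicate 1, in the Pcdhgc5 exon, was in the broader list of both libraries (0.616 and 0.630). The spacer before the gamma constant exons held 1 broader-list peak, in replicate 2 (0.676), and the gamma constant exons held none.

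Beyond the gamma cluster lay the strongest narrow peaks of the region counted. At 10.4 kb past the gamma end, chr18:37852161-37852400, the strengths were 5.09 and 3.81 (4.45 ± 0.902), and both were above those of every member start. Further peaks lay at 35.5 kb (2.09 and 2.54, mean 2.31 ± 0.319), at 38.5 kb (3.39 and 3.45, mean 3.42 ± 0.0427) and at 41.8 kb (4.35 and 3.56, mean 3.95 ± 0.562). All 4 lay in introns of Diaph1, a formin that nucleates actin and is encoded on the minus strand, and each overlapped between the libraries. A site 0.900 kb past the gamma end was narrow in replicate 1 only, while the broader list gave 2.01 and 1.53 (1.77 ± 0.341). Enhancers are known downstream of the alpha constant exons and beyond the gamma cluster, and whether these peaks are those enhancers was not tested.

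**Figure D5:**
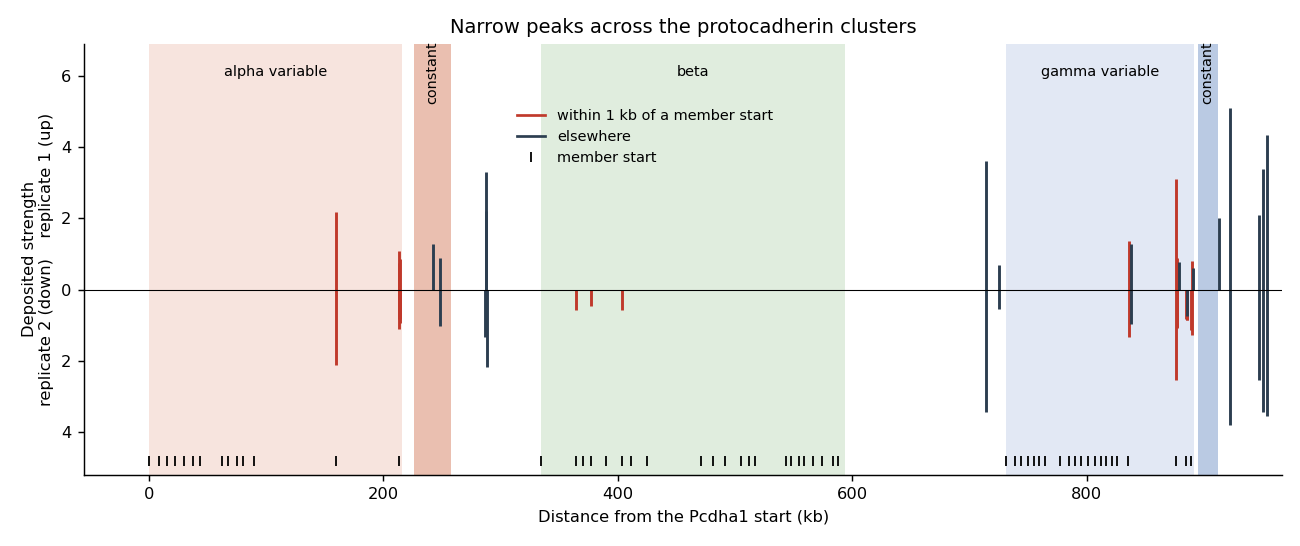
Narrow peaks by distance from the Pcdha1 start (x axis, kb) and deposited strength, upward for replicate 1 and downward for replicate 2. Red lines lie within 1 kb of a member start, dark lines elsewhere, shaded bands mark the variable, constant and beta exon regions, and ticks mark the 57 starts. The 3 peaks between alpha and beta and the 4 strong peaks after the gamma cluster appear in both libraries, and the beta band holds 3 short lines in replicate 2 only.

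The CTCF core was also looked for within 150 bp of the middle of the narrow peaks away from starts. It was present in 4 of 15 (26.7%) in replicate 1 and 3 of 12 (25%) in replicate 2, close to the 24.9% and 22.6% of all narrow peaks. The 5 matches in replicate 1 and the 4 in replicate 2 all read on the minus strand, opposite to those in the alternate alpha windows. The strand share over all narrow peaks is not given here. Matches are letters of the reference, so near a peak shared by the libraries the same letters can be counted once per library. The counts are therefore not replicates of each other. In both libraries matches lay within 150 bp of the middle of the alpha-beta gap peak at chr18:37218201-37218460. Others lay as near to the middle of the peak 10.4 kb past the gamma end, at 2 positions, and of that 41.8 kb past it. Whether each match lies inside the peak itself was not checked. In replicate 1, 1 more lay around the middle of the first peak of the alpha-beta gap. The overlapping peak of replicate 2, chr18:37217161-37217440, has its middle elsewhere, so that match does not mark a difference between the libraries.

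Start peaks of other protocadherins and of chromatin regulators were read beside the 50.5% of all protein-coding genes with a narrow start peak in both libraries. Of 12 non-clustered protocadherins, which lie outside the 3 clusters, 10 (83.3%) had a narrow start peak in both libraries and 11 a broader-list peak. The strongest were Pcdh10 (5.68 and 6.25), Pcdh9 (5.50 and 4.30) and Pcdh17 (4.54 and 3.85), each above every clustered member in both libraries, while Pcdh12 and Pcdh20 lacked a narrow peak in at least 1 library. Of 20 chromatin regulators, among them factors of chromosome loops and of DNA methylation known to act at these clusters, 13 (65%) had a narrow start peak in both libraries. They were led by the cohesin subunit Smc3 (6.06 and 6.69), the cohesin loader Mau2 (4.45 and 3.19) and the cohesin release factor Wapl (4.25 and 3.38), and Ctcf itself had 2.49 and 2.37. Among those that lacked it in at least 1 library at the start of the gene record were Stag1, Dnmt1, Dnmt3a, Dnmt3b, Tet3 and Rest. Of 8 protein-coding genes and models beside or across the clusters, 4 had a narrow start peak in both libraries. Slc25a2, between the beta and gamma clusters, had no start peak of either list, and neither did the 3 models that run through the locus. Besides Taf7, the neighbouring genes Zmat2 (4.64 and 3.24), before the alpha cluster, and Diaph1 (4.60 and 2.79) and Hdac3 (3.01 and 2.77), after the gamma cluster, had stronger narrow start peaks than all members in the same library except for Pcdhgc3, which exceeded Hdac3 in replicate 1.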

How the data were processed

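DNase-seq files of 2 libraries of mouse left cerebral cortex were used, on mm10 per the labels. The authors deposited, per library, 2 peak lists with a signal value per peak (column 7, here strength), a table of FDR values (q-values, listed up to 0.05), and footprints with a constant value that was not used. Peaks were called on each library alone. Aligner, callers and scaling of strength: not given in the sources used here. Strengths were compared without further scaling, and read totals were not used.

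Starts were the 5-prime ends of GENCODE M21 gene records, and intervals counted where at least 1 bp lay within 1000 bp. For genes with several peaks the strongest was taken. Regions were set from the annotation, with flanks of 50 kb, and peaks shared between libraries overlapped by at least 1 bp. Coordinates are counted from 1. Sequence features came from GRCm38.p6 and were checked on simulated sequences. Python 3.11.15, numpy 2.4.6, pandas 2.3.3, numba 0.67.0 and matplotlib 3.10.9 were used. With 1 group of 2 libraries no test was made, and means carry the SD over libraries.

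Members, gene lists and markers were chosen with earlier results of these data known. Values are given for every C-type member, the 3 members of each cluster with the strongest broader-list peaks, every member with a narrow peak, and the 3 strongest peaks of each region. The 12-letter CTCF core was taken after a 19-letter consensus had matched few members, and the shared word and the search in peaks away from starts were chosen after seeing the data. Alternatives were other windows, starts, overlaps, peak strength limits, FDR limits, flanks and single libraries. The values of 1 gene of the regulator list are not reported here.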

Additional observations from a re-analysis of the deposited data

How the results depend on the processing

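Of 188 alternative values over 42 results, 163 stayed near the value given (counts within 1.5 times) and 25 moved. Some alternatives took calls from the FDR table, which comes from the same libraries as the peak lists and is not a separate check. No paired analysis was possible because the study has 1 group. With the strongest 50% of narrow peaks, members called in both libraries fell from 5 to 3 and alpha members from 2 to 1; narrow and broader peaks of the beta-gamma gap fell from a mean of 2 to 1, and shared broader ones to 1. Joining peaks within 200 bp gave the alpha-beta gap 1.50 narrow peaks per library in place of 3, 1.50 shared in both lists, and 2 broader peaks in place of 3.50. A 100 kb downstream flank held 8 broader peaks per library in place of 5. CTCF core matches fell from 13 members (10 alpha) to 6 (6 alpha) without mismatch, 3 (1) within 500 bp and 1 (1) with the longer consensus, an alternative chosen after seeing the data.

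Leaving out each library in turn counted the calls of the other alone. Without replicate 1, narrow calls were 9 (beta 3), broader calls 17 (gamma 5) and footprint calls 15 (beta 7, gamma 5). Without replicate 2, narrow calls were 5 (beta 0), broader calls 13 (gamma 5) and footprint calls 11 (beta 4, gamma 5). With 2 libraries, possibly of 1 animal, and unknown depth, a missing call says only that no site was called.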
